A study of Mus musculus with 2 samples.

Results

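The oxidative phosphorylation subunits are the nuclear genes that encode the parts of respiratory complexes I to V. They were chosen by symbol among the protein-coding genes of GENCODE mouse release M21. Symbols beginning with Nduf and the letter a, b, c, s or v with a digit were taken as complex I and Sdha to Sdhd as complex II. Symbols beginning with Uqcr were taken as complex III, Cox4 to Cox8 as complex IV and Atp5 as complex V. The rule gave 84 of 21912 genes, with 37 in complex I, 4 in complex II, 8 in complex III, 18 in complex IV and 17 in complex V. The 13 genes of the mitochondrial genome are not among them. H3K27ac, an acetylation of histone H3 found at active promoters and enhancers, was profiled by ChIP-seq (chromatin immunoprecipitation with sequencing) in bone marrow-derived macrophages of C57BL/6J mice. The cells had received no stimulus, and no other treatment, genotype or group was part of the series. Each of the 2 biological replicates was made from 10 ng of DNA. The replicates share 1 donor entry, so the spread between them may be technical and may leave out differences between animals. Age, sex and stage were unknown or not collected.

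Complexes I to IV pass electrons from NADH and succinate to oxygen, and complexes I, III and IV pump protons across the inner mitochondrial membrane. Complex V, the ATP synthase, uses the returning protons to make ATP. Resting macrophages respire, and inflammatory activation is known to turn them towards glycolysis, while succinate and complexes I and II take part in that switch. Several complex IV subunits exist in a widely expressed form and in a form of heart and skeletal muscle, lung or testis. Ndufa4, named as a complex I gene, has a form induced at low oxygen, Ndufa4l2, which is counted here with the tissue isoforms.

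Marked genes are those with a peak within 1 kb of at least 1 annotated start in the list of replicate 1 and again in the list of replicate 2. The lists held 29543 and 29345 peaks in replicates 1 and 2. Each peak carries the authors' signal value, the seventh column of the list, and its rank is given here as the percentile of that value among all peaks of the same list. Sequencing depth was not given in these sources, so absence of a peak means that the promoter did not reach the peak threshold in a library, which is not absence of the mark. Genes and peaks are not replicates, and no test was made over them. All 10 macrophage markers on a list, Spi1, Csf1r and Adgre1 among them, were marked. None of 5 neutrophil, 5 T and B cell and 5 fibroblast markers was marked.

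The promoters of 2 pairs of complex IV isoforms are shown because the widely expressed form of each pair has a CpG-richer upstream region than the muscle form. They are taken from the 250 bases before the RefSeq start on GRCm38.p6, up to the outermost annotated 5′ end, read along the gene, and capitals mark each CpG dinucleotide.
Cox7a2 promoter, chr9:79759879-79760103, minus strand: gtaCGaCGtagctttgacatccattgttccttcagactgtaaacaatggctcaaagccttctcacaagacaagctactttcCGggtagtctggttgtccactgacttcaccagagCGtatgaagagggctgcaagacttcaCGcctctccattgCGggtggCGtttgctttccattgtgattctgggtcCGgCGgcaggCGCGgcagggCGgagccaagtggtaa
Cox7a1 promoter, chr7:30183921-30184143, plus strand: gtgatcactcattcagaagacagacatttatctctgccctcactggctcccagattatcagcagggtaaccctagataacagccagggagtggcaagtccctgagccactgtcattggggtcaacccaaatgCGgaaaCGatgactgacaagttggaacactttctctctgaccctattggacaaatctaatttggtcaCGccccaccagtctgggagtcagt
Cox8a promoter, chr19:7217617-7217866, minus strand: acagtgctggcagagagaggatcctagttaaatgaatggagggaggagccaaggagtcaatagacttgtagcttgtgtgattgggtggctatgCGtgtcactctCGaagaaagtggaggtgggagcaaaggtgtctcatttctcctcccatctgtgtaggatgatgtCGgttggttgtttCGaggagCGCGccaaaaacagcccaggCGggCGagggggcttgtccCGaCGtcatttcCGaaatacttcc
Cox8b promoter, chr7:140900447-140900696, minus strand: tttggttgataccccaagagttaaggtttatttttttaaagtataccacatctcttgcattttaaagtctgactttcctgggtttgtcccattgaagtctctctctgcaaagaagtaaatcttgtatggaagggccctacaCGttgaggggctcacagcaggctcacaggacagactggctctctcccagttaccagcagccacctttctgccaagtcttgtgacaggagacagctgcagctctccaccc
The stretches of the Cox7a pair hold 12 CpG in 225 bases of Cox7a2 and 3 in 223 bases of Cox7a1. Those of the Cox8 pair hold 11 in 250 bases of Cox8a and 1 in 250 bases of Cox8b.

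Of the 84 subunit genes, 68 (81.0%) were marked, against 39.3% of all protein-coding genes. Replicate 1 on its own had a peak at 72 of them and replicate 2 at 72, against 40.5% and 41.6% of all genes. A peak in 1 replicate alone was found at 8 genes and in neither replicate at 8. The list that the authors made from both replicates together had a peak at 76, which include all 8 genes with a peak in 1 replicate alone, against 43.8% of all genes, and their pooled pseudoreplicated list also had 76, against 43.9%. With windows of 500 bp and 2.5 kb the count was again 68, against 38.2% and 41.0%. The shares were 31 of 37 in complex I (83.8%), 4 of 4 in complex II, 6 of 8 in complex III (75.0%), 11 of 18 in complex IV (61.1%) and 16 of 17 in complex V (94.1%). Complex IV had the lowest share, and 7 of its 18 genes are tissue isoforms. Without the tissue isoforms 10 of the other 11 genes of complex IV (90.9%) were marked, and 67 of 76 subunit genes (88.2%).

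**Figure D1:**
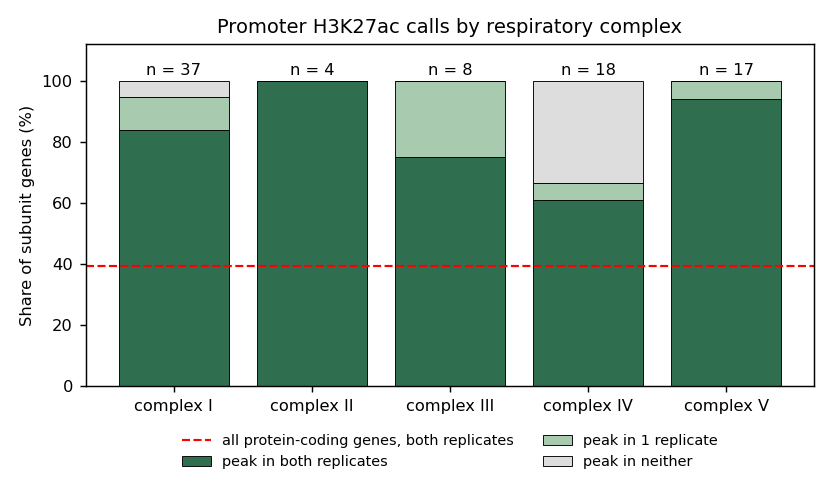
Bars give the share of subunit genes (%, vertical axis) of each complex with a promoter peak in both replicates, in 1 replicate or in neither, and the dashed line gives the share of all protein-coding genes with a peak in both, 39.3%. Complex IV holds 6 of the 8 genes with no peak in either replicate.

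Although most subunit promoters were marked, their peaks were of middling rank. The median percentile of the marked subunit genes was 62.0 in replicate 1 and 64.6 in replicate 2, against 69.4 and 70.6 for all marked genes. The median peak was 879.5 and 981 bp wide, against 1012.5 and 1116 bp. Of the 68 marked genes, 9 in each replicate lay in the upper 25% of all marked genes, and 21 and 19 lay in the lower 25%. The 10 macrophage markers had medians of 95.4 and 93.1. Other housekeeping machines were marked at higher shares than the subunits, which had 81.0%, or 88.2% without the tissue isoforms. The cytosolic ribosomal proteins had 79 of 83 promoters marked (95.2%) with median percentiles of 66.7 and 71.8, and the proteasome subunits had 36 of 39 (92.3%) with 60.2 and 63.9. Between the replicates the percentile of a marked subunit gene moved by a median of 5.80 points, against 3.69 for all marked genes.

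By complex, the median percentile in replicates 1 and 2 was 60.2 and 65.4 in complex I, 72.2 and 71.3 in complex II, 63.2 and 64.2 in complex III, 53.5 and 52.6 in complex IV, and 62.5 and 65.8 in complex V. Complex IV was lowest and complex II highest in each replicate. Median widths were 916 and 946 bp in complex I, 932.5 and 1549.5 bp in complex II, 1340 and 1397 bp in complex III, 541 and 762 bp in complex IV, and 858 and 881 bp in complex V. Complex IV peaks were thus also the narrowest, while the percentiles within it ranged from 23.4 to 91.5 in replicate 1 and from 13.6 to 90.3 in replicate 2. These are widths of 1 peak per gene. Of marked complex IV genes 54.5% and 45.5% had 2 or more peaks near the 5′ end, against 39.7% and 29.4% of all marked subunit genes. With the widest peak taken instead, the complex IV median, averaged over the replicates, was 818 bp against 652 bp. It was still the lowest, next to 870 bp in complex V.

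**Figure D2:**
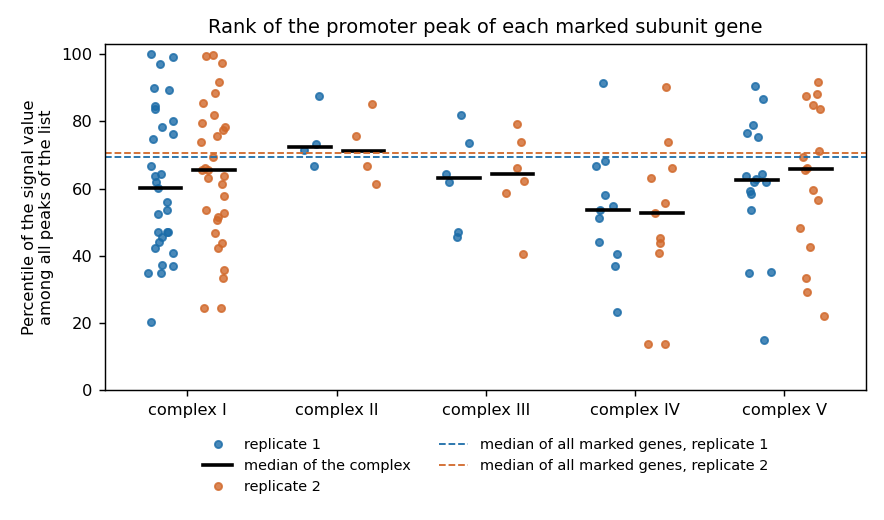
Each point is the promoter peak of 1 marked subunit gene, placed by the percentile of its signal value in its own list (vertical axis), for the 5 complexes and both replicates. Black bars are medians of a complex and dashed lines the medians of all marked genes, 69.4 and 70.6. The medians of complexes I, III, IV and V lie below the dashed lines, and complex IV lies lowest.

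Complex I has core subunits, which carry the flavin and the iron-sulfur clusters, and accessory subunits around them. Of 7 core genes 6 were marked, and of 30 accessory genes 25. The core genes that were marked ranked high, with medians of 88.6 and 91.4, against 53.5 and 63.8 for the accessory genes. Much of this lay under peaks that also cover genes of other functions.

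Ndufs8, an iron-sulfur subunit on chr19:3908863-3912774, had the highest signal value of all 84 genes, 47.8 in replicate 1 and 46.3 in replicate 2. Its percentiles were 99.9 and 99.8. The peak was 12119 and 12677 bp wide, covered the whole gene and also the start of Tcirg1, a subunit of the lysosomal and osteoclast proton pump. Its summit lay 4985 and 4822 bp downstream of the nearest Ndufs8 start. With the starts of coding transcripts alone, a choice made after seeing the data, the core medians were 73.0 and 76.4. The share of all genes marked by that rule was 38.4%.

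Ndufs1, the largest iron-sulfur subunit, had signal values of 30.6 and 32.0 and percentiles of 97.1 and 97.4. Its promoter is shared with Eef1b2, a translation elongation factor gene that starts within 1 kb, and whether the peak belongs to Ndufs1 or to its neighbour cannot be told apart, here and at the other shared promoters. Ndufs3, a subunit of the matrix arm, followed with signal values of 14.1 and 17.3 under a peak shared with Kbtbd4. Ndufs7, which holds the last iron-sulfur cluster before ubiquinone, had 9.12 and 8.21 with no other start nearby. Ndufv2 had 5.89 and 9.22, percentiles of 40.7 and 63.0. Ndufv1, the subunit that binds NADH and the flavin, had no promoter peak in replicate 1 and a peak of signal value 4.36, percentile 21.9, in replicate 2. The core genes therefore ran from the 99.9th percentile to no call in 1 replicate.

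Among the accessory genes Ndufb9 ranked highest, with signal values of 20.3 and 22.5 under a peak shared with Tatdn1. The lowest marked accessory genes were Ndufa10, with 5.33 and 4.52, and Ndufb6, with 4.30 and 4.52. Ndufs4 had a peak in replicate 1 alone, at a signal value of 4.30, and so had Ndufb4, at 3.79. Ndufa5 had a peak in replicate 2 alone, at 3.85. These peaks stood at the 20.4th, 11.9th and 13.6th percentiles of their lists. Ndufa1, a membrane arm subunit on the X chromosome, had no peak in either replicate or in the list from both, and the nearest peaks lay 63686 and 63653 bp from its 5′ end. Its 5′ region is CpG rich, with an observed to expected CpG ratio of 0.84, and holds the start of Rnf113a1. Of the other 2 X-linked subunit genes, Ndufb11 had signal values of 8.78 and 9.72 and Cox7b 7.57 and 6.37. Of all X-linked genes 24.3% were marked.

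Complex II is the smallest and the only complex that also serves the citric acid cycle. Sdha, the flavoprotein that oxidises succinate, had signal values of 9.81 and 12.7 and percentiles of 66.6 and 75.7. Sdhb, the iron-sulfur subunit, had 11.5 and 10.1. The membrane anchors Sdhc and Sdhd had 18.2 and 17.1, and 11.0 and 8.88. All 4 lay between the 61.3rd and 87.4th percentiles in both replicates. Sdha shares its promoter region with Ccdc127 and Sdhd with Timm8b, an import factor of the inner mitochondrial membrane. Sdhb alone of the 4 shares none with another gene, and its 25 kb surroundings held 4 distal peaks, meaning replicate 1 peaks more than 1 kb from every start that a replicate 2 peak overlapped.

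In complex III the hinge subunit Uqcrh ranked highest, with signal values of 15.0 and 14.1, followed by Uqcrb with 11.7 and 12.1 and Uqcr10 with 8.78 and 9.89. The starts of other genes lay under each of these peaks, those of Lrrc41, Gm10767 and Zmat5. The lowest of the marked genes were Uqcr11, with 6.54 and 9.05, and the core protein Uqcrc2, with 6.37 and 5.87. The other core protein, Uqcrc1, had a peak in replicate 2 alone, at a signal value of 6.37 and the 45.4th percentile. Uqcrfs1, the Rieske iron-sulfur protein, likewise had a peak in replicate 2 alone, at 5.36 and the 35.5th percentile. In the list made from both replicates the authors' signal values were 5.47 for Uqcrc1 and 4.64 for Uqcrfs1. No distal peak lay within 25 kb of any of the 6 marked complex III genes.

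Complex IV, cytochrome c oxidase, holds 7 of the 8 tissue isoforms. Its highest value was that of Cox7a2l, a factor that joins complexes III and IV and whose protein is a shortened form in C57BL/6J mice. It had signal values of 21.7 and 21.1, at the start of its coding transcripts, 2638 and 2423 bp downstream of its outermost annotated start. Cox7a2 followed with 10.2 and 12.1 and Cox6b1 with 9.81 and 9.22. The lowest were Cox4i1, a large regulatory subunit, with 5.51 and 3.85, and Cox6c, with 4.47 and 3.85. The Cox4i1 peak lay off the start, with its summit at -724 and -721 bp from the nearest start (negative is upstream), in a region shared with Emc8. Both thus ranked among the weakest marked promoters of the 84 genes.

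The tissue isoforms were marked less often than their partners, and the 2 sets differ in CpG class. Of the 8 tissue forms 1 was marked (12.5%), and of their 7 widely expressed partners 6 (85.7%), against 39.3% of all genes. All 8 tissue forms have a CpG ratio under 0.6 around the 5′ end, and 20.4% of all such genes were marked. Of the 7 partners 6 have a ratio of at least 0.6, and 61.6% of all such genes were marked. Whether the difference goes beyond CpG class was not tested. The heart and skeletal muscle forms Cox6a2 and Cox8b, the lung and smooth muscle form Cox4i2, the testis forms Cox6b2, Cox7b2 and Cox8c, and the low-oxygen form Ndufa4l2 had no peak in either replicate. The nearest peaks to their 5′ ends lay between 6416 bp, at Ndufa4l2, and 612523 bp, at Cox7b2, in replicate 1. In replicate 2 they lay between 6487 bp and 612658 bp, at the same genes. The partners that were marked ran from Cox4i1 to Ndufa4, whose signal values were 19.8 and 19.6. Ndufa4, kept in complex I by its symbol, is now known as a subunit of complex IV. Cox6a1 was the partner without a call in both, with a peak of 3.27 in replicate 1, the 4.13th percentile, and none in replicate 2.

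Cox7a1, the heart and skeletal muscle form of the Cox7a pair at chr7:30184144-30186078, was the exception. It had signal values of 7.07 and 5.96, percentiles of 51.2 and 40.9, and widths of 881 and 1027 bp. Its partner Cox7a2 had 10.2 and 12.1, percentiles of 68.1 and 73.9, and widths of 531 and 762 bp. The Cox7a1 peak covered no start of another gene, and its summit lay 264 and 197 bp downstream of the start. The upstream sequences printed above show this promoter with 3 CpG against the 1 of Cox8b, a muscle form without a peak. The observed to expected CpG ratios around the 5′ ends were close, 0.28 and 0.25. Those of the tissue forms without a peak lay on both sides of Cox7a1, from 0.19 at Ndufa4l2 to 0.47 at Cox7b2. Markers of muscle were mostly without a peak. Of 10 markers of skeletal and heart muscle, 9 had no peak in either replicate, Acta1, Ckm and Myh7 among them, and Tnni2 had signal values of 38.5 and 38.0. Of 8 testis germ cell markers 1 was marked, Zpbp, with 7.40 and 8.71.

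**Figure D3:**
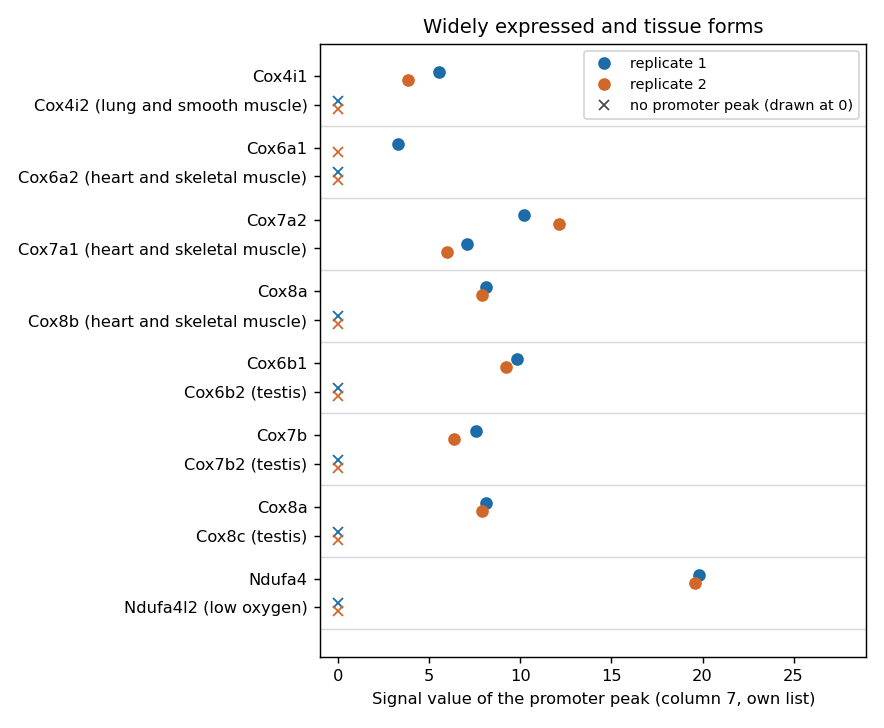
The authors' signal value of the promoter peak (horizontal axis, own list of each replicate) is drawn for the widely expressed form and the tissue form of each pair, and crosses at 0 stand for no promoter peak. Cox8a is drawn in 2 pairs. Cox7a1 is the only tissue form with points, at 7.07 and 5.96, both to the left of its partner Cox7a2.

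Complex V was the complex with the highest share after complex II. All 5 genes of the F1 head, which makes ATP, were marked. Atp5c1, the central shaft, had signal values of 12.3 and 19.3 and Atp5b, the catalytic beta subunit, 13.6 and 16.3. Atp5a1, the alpha subunit, had 8.78 and 8.55 and Atp5e, the epsilon subunit, 5.38 and 6.16. Atp5d, the delta subunit, had 5.33 and 4.86 and its promoter peak lay at inner starts rather than at the outermost start. The F1 genes thus spanned the 35.0th to 78.9th percentiles in replicate 1 and the 29.3rd to 88.1st in replicate 2.

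Of the other 12 complex V genes 11 were marked. Atp5l, the g subunit, had the highest values, 20.6 and 22.6, and Atp5j, a stalk subunit, 17.7 and 18.8 under the peak it shares with Gabpa. Gabpa encodes the DNA-binding subunit of GABP, also named nuclear respiratory factor 2, a known activator of respiratory chain genes. Atp5h, the d subunit of the stalk, was lowest, with 3.96 and 5.20. Atp5s had a peak in replicate 1 alone, at 3.96 and the 14.8th percentile. Atp5g1, Atp5g2 and Atp5g3 encode the same mature c subunit of the proton-driven ring with different import sequences. Their signal values were 8.19 and 6.86 for Atp5g1, 9.12 and 10.7 for Atp5g2, and 7.40 and 9.72 for Atp5g3. Atp5g2 was highest in both replicates, but these peaks began 1507 and 1319 bp downstream of its outermost 5′ end. Within 1 kb of that end its highest values were 5.16 and 5.96, the lowest of the 3 genes. The order of Atp5g1 and Atp5g3 was not the same in both replicates. Atp5o, the stalk subunit that confers oligomycin sensitivity, had signal values of 8.95 and 8.04 and was among the 3 genes with the widest peaks by mean width, 1612 and 3381 bp. The summits lay at -1477 and -1428 bp from the nearest start. In replicate 1 that peak lay wholly upstream of the outermost 5′ end, and a separate peak of 8.30 covered it. The annotated gene spans chr16:91684398-91931687 because 2 overlapping entries of that symbol were joined.

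**Figure D4:**
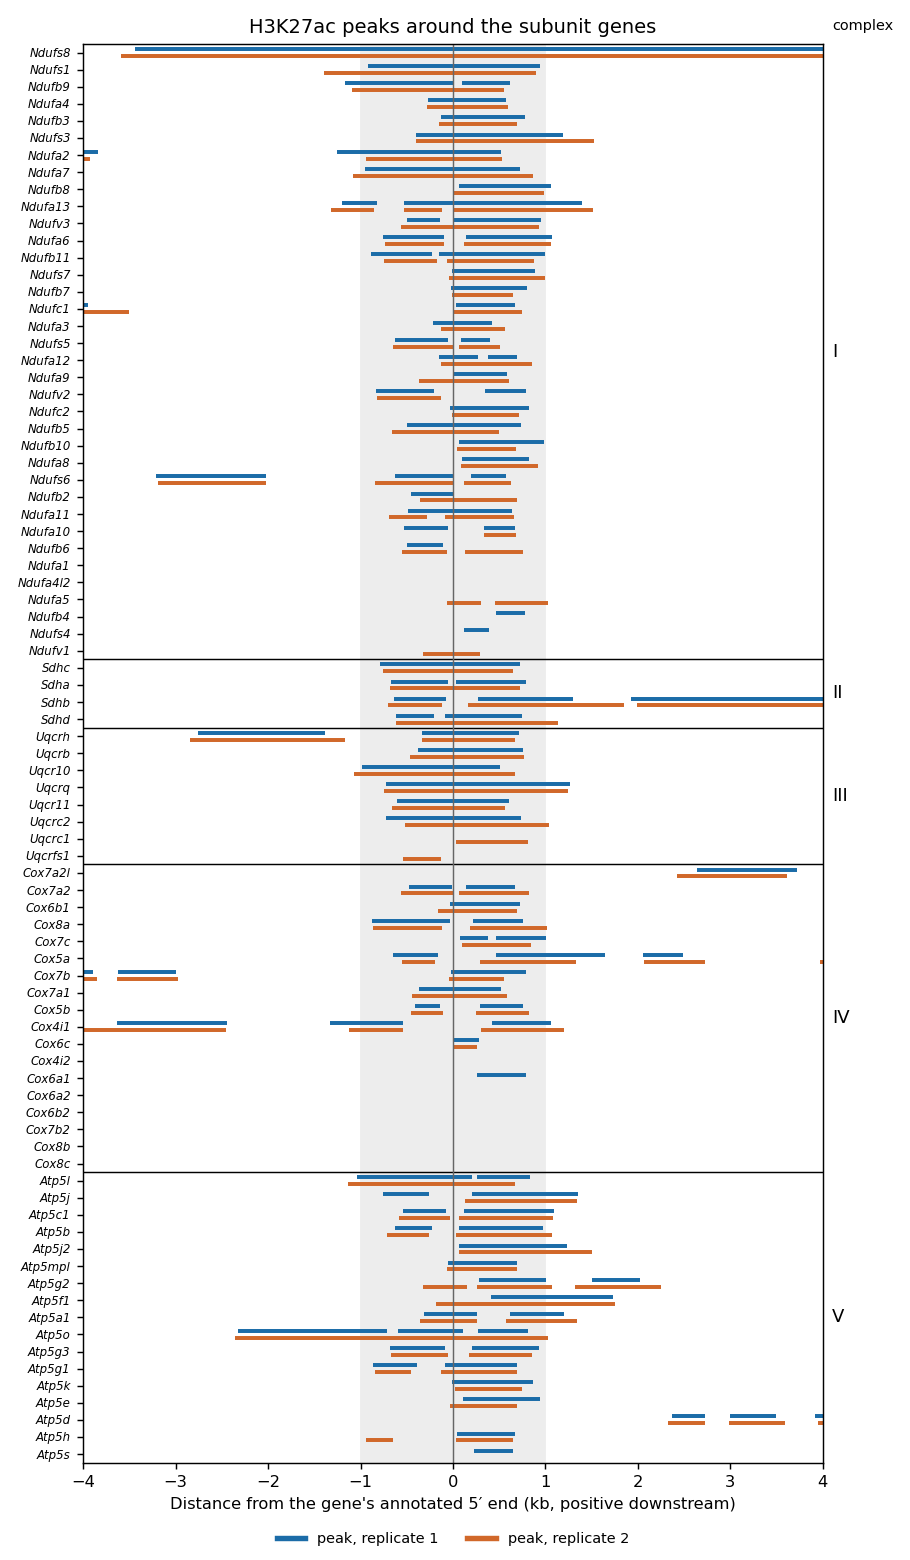
Bars are H3K27ac peaks of replicate 1 and replicate 2 around 83 of the 84 genes, by distance in kb from the outermost annotated 5′ end (horizontal axis, 4 kb either side), ordered by mean percentile within each complex. The shaded band is 1 kb either side. Many genes have a gap at the start between flanking peaks, the 12119 and 12677 bp peaks over Ndufs8 run past the upper right edge, and Cox7a2l and Atp5d have their peaks outside the band, at inner starts.

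Many subunit promoters were shared with a neighbour. A start of another protein-coding gene lay within 1 kb of a start of 33 of the 84 genes (39.3%), against 14.5% of all genes. The shares were 18 of 37 in complex I, 3 of 4 in complex II, 4 of 8 in complex III, 1 of 18 in complex IV and 7 of 17 in complex V. Ndufb5 and Ndufs6 share theirs with Mrpl47 and Mrpl36, genes of the mitochondrial ribosome, and Ndufa7 with Rps28, a cytosolic ribosomal protein gene. Of the 33 genes 30 were marked (90.9%), against 73.1% of all genes with a shared start. Of the other 51 genes 38 were marked (74.5%), against 33.6% of all genes without a shared start.

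Rank moved with sharing. The marked subunit genes with a shared start had median percentiles of 72.5 and 74.8 and median widths of 1129.5 and 1229.5 bp. Those without had 54.1 and 59.5, and 768 and 829.5 bp. Over all marked genes the corresponding percentiles were 71.4 and 72.9 with a shared start and 68.7 and 69.5 without. Among marked genes without a shared start, the mean of the median percentiles of both replicates was 48.8 in complex III (2 genes), 52.4 in complex I (15 genes), 54.2 in complex IV (10 genes), 65.3 in complex V (10 genes) and 69.9 in complex II (1 gene). The subunit medians were thus below those of all marked genes without a shared start, and not below those of all marked genes with one.

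Subunit genes started in CpG-rich sequence. In the 500 bases on either side of the 5′ end the median observed to expected CpG ratio was 0.71, against 0.55 for all genes, and 65 of 84 genes (77.4%) had a ratio of at least 0.6, against 45.9%. Of these 65 genes 57 were marked (87.7%), against 61.6% of all such genes. Of the 19 with a lower ratio 11 were marked (57.9%), against 20.4%. The ratio is that of the outermost 5′ end, while a peak at any start counts. Cox7a2l, with a ratio of 0.14, had its peak at an inner start. All 8 tissue isoforms were in the lower class, with ratios from 0.19 at Ndufa4l2 to 0.47 at Cox7b2, and Cox7a1 had 0.28. Distal peaks were few, but no fewer than in similar groups. Within 25 kb of the 5′ end 61.8% of marked subunit genes had none, against 54.3% of all marked genes, and the means were 0.65 and 0.91. Among marked ribosomal protein genes 60.8% had none (mean 0.70), and among marked proteasome genes 63.9% (mean 0.53). Of all marked genes with a shared start 62.2% had none (mean 0.67).

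Words of factors known to act on respiratory genes were searched on both strands. The words were GCGCANGCGC for NRF1, CCGGAAG for ETS factors including GABP, AAGATGG for YY1, GGGCGG for SP factors, CCAAT for NF-Y, AAGGTCA for estrogen-related receptors (ERR), TGACGTC for CREB factors and TATAAA for the TATA box. In the stretch from 250 bases before to 50 after the 5′ end, the NRF1 word was in 15.5% of subunit genes, against 5.98% of all genes and 10.6% of marked genes. The YY1 word was in 13.1%, against 6.21% and 7.56%, and the ERR word in 11.9%, against 4.17% and 3.10%. The ETS word was in 19.0%, against 10.8% of all genes and 19.7% of marked genes, so it was no more common than in marked promoters in general. The SP word was in 39.3%, against 43.0% and 59.4%, and the NF-Y word in 39.3%, against 39.0% and 39.5%. The CRE word (5.95%, against 4.00% and 6.00%) and the TATA box (13.1%, against 12.6% and 7.23%) completed the set. A match is a string of letters and was not shown to be a bound site.

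The ERR word differed most when the window was widened to 500 bases on either side. It was then in 37 of 84 subunit genes (44.0%), against 14.5% of all genes and 12.2% of marked genes. Most of the difference lay after the start. In the 500 bases downstream of the 5′ end 31 subunit genes (36.9%) held it, against 6.77% of all genes and 5.54% of marked genes. In the 250 bases upstream 7 did (8.33%), against 3.75% and 2.93%. The shares by complex were 13 of 37 in complex I, 2 of 4 in complex II, 5 of 8 in complex III, 8 of 18 in complex IV and 9 of 17 in complex V. Among CpG-rich genes the share was 50.8% of the subunits and 10.4% of all such genes. The ribosomal protein genes had 10.8% and the proteasome genes 12.8%. The look at positions and at these other lists was chosen after seeing the data.

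The full ERR element adds TC before the word. It was found at 8 of 84 subunit genes (9.52%), against 1.87% of all genes. Sites of 6 of these genes are shown, because, of the 8 words, this is the one whose share differed most between the subunits and all marked genes. Each is 27 bases on GRCm38.p6, read on the strand of the word, with the word in capitals.
Atp5b, chr10:128083486-128083512, minus strand: gcccaagctcAAGGTCAcggggagaag
Atp5g3, chr2:73911362-73911388, plus strand: gaagacgctcAAGGTCActttgtaaca
Atp5o, chr16:91931322-91931348, plus strand: cctggatgtcAAGGTCAagacagagaa
Ndufv2, chr17:66101170-66101196, minus strand: taacttagtcAAGGTCAggaaggcgat
Ndufb4, chr16:37654740-37654766, plus strand: gtcattagtcAAGGTCAttagtgtctc
Sdhd, chr9:50603797-50603823, plus strand: tcgagggctcAAGGTCActctacaacc
The Atp5b and Ndufv2 sites are in introns, 227 and 377 bases downstream of the 5′ end, and the Atp5o site is in a UTR, 353 bases downstream. The Atp5g3 and Ndufb4 sites lie upstream, at -49 and -300 bases from the 5′ end, and the Sdhd site lies across it. The Atp5b, Atp5o and Sdhd sites were inside an H3K27ac peak of each replicate. The Ndufv2 site was inside a replicate 1 peak alone, the Atp5g3 site lay between flanking peaks, and the Ndufb4 site lay in no peak.

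Of 51 ERR words in all subunit genes 43 were at marked genes, and 33 of those lay inside a peak of both replicates. Genes with the word were not ranked higher. Of the 37 with it 33 were marked (89.2%), with median percentiles of 58.1 and 59.5. Of the 47 without it 35 were marked (74.5%), with 63.6 and 66.2, and 7 of these 47 are tissue isoforms. The YY1 and ETS words were also placed just after the start. In the first 250 bases downstream the YY1 word was in 22.6% of subunit genes, against 6.58% of all genes and 8.44% of marked genes. The ETS word was in 20.2%, against 7.73% and 13.9%, and the NRF1 word in 13.1%, against 2.93% and 5.42%.

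**Figure D5:**
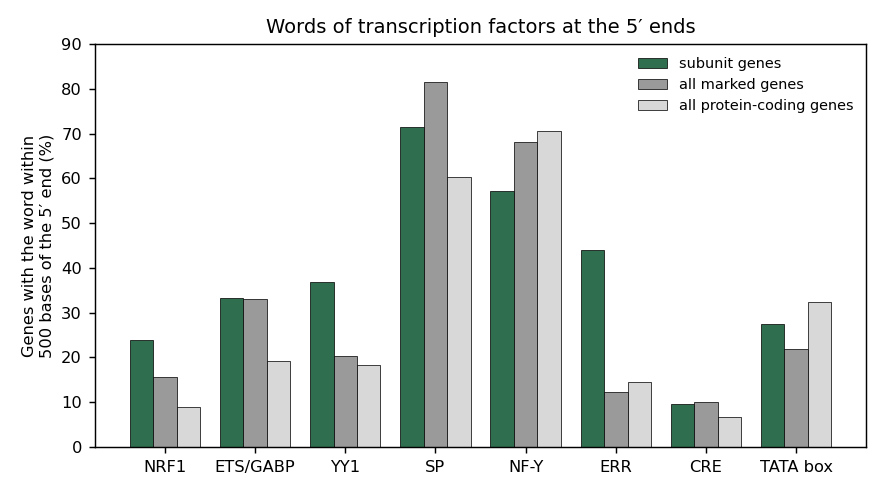
Bars give the share of genes (%, vertical axis) with each word within 500 bases of the 5′ end, for the 84 subunit genes, all marked genes and all protein-coding genes. The ERR bars stand at 44.0%, 12.2% and 14.5%, and the ETS/GABP bars of subunit genes and marked genes at 33.3% and 33.1%.

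The genes for factors of mitochondrial biogenesis, from a list of 15, were marked in 10 cases (66.7%), against 39.3% of all genes. Nrf1 and Gabpb1 ranked highest, with signal values of 22.7 and 21.4, and 22.7 and 22.3. Gabpa had 17.7 and 18.8, and Esrra, the gene of the estrogen-related receptor alpha, 14.5 and 14.2. Ppargc1a, a coactivator of these factors, had its nearest peaks 579266 and 579190 bp from its 5′ end in the replicates' lists. Its relatives Ppargc1b, with 6.88 and 7.37, and Pprc1, with 14.6 and 14.7, were marked. The Pprc1 promoter region is shared with Ldb1. Ppara and Tfam, the packaging factor of mitochondrial DNA, had no promoter peak, and the mitochondrial polymerase genes Polg and Polrmt had a peak in replicate 2 alone.

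Of 46 assembly factors 36 were marked (78.3%, against 39.3% of all genes), with median percentiles of 59.1 and 63.5, close to those of the subunits they assemble. Foxred1, for complex I, had signal values of 30.5 and 33.6, at percentiles of 97.0 and 97.9. Cox15, which makes the heme A of complex IV, stood at percentiles of 94.3 and 93.7. Both share their promoter region, Foxred1 with Srpr and Cox15 with Cutc, so these peaks cannot be assigned to 1 gene. Acad9, Atpaf1, Ndufaf4, Ndufaf6, Nubpl and Sdhaf3 had no promoter peak in either replicate, though the list from both replicates held one at Acad9, with a signal value of 3.62, and at Sdhaf3, with 2.97. Cox11, Ndufaf2, Ndufaf5 and Tmem70 had a peak in 1 replicate alone. Of 10 genes for electron carriers, the ATP synthase inhibitor and subunits with other names, 7 were marked (70.0%, against 39.3% of all genes). Etfb, of the electron transfer flavoprotein, had 21.9 and 26.1, in a promoter region shared with Gm45233. Dhodh, which feeds electrons from pyrimidine synthesis, had 17.2 and 18.4. Cycs, the somatic cytochrome c, had 8.95 and 9.22, while its testis form Cyct had no promoter peak in either replicate. Cyc1, the cytochrome c1 of complex III, had no promoter peak either, with the nearest 6408 and 6175 bp away, and Ndufab1, the acyl carrier protein, had a peak in replicate 2 alone.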

How the data were processed

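H3K27ac ChIP-seq was profiled in 2 replicates of 1 group. The authors deposited narrowPeak lists on mm10, 1 per replicate from its own alignments, plus 2 lists made from both together (replicated, and pooled pseudoreplicated), whose values are the authors' own with no SD or n. Each deposited peak has a signal value (column 7), a display score, a −log10 q value and a summit offset. The sources used here do not give the aligner, the caller, the depth or what the signal value is relative to, so signal values were used within their own list. The display score was not used.

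Gene models were GENCODE M21 on GRCm38.p6, and overlapping entries of 1 symbol on 1 strand were joined, leaving 21912 genes with 93504 starts. The peak with the highest signal value within 1 kb of any start was taken. Positions are 1-based. Promoter sequences are from the RefSeq table on GRCm38.p6, which matched 66 of the 84 genes. Computations used Python 3.11.15, pandas 2.3.3, numpy 2.4.6 and pysam 0.24.0, and the promoter call was tested on simulated data. Alternatives were windows of 500 bp and 2.5 kb, the 5′ end alone, an overlap of 200 bp, a −log10 q of at least 5, the 20000 highest peaks, the widest peak, each replicate alone, the lists from both, genes without a shared start, distal peaks within 100 kb and words within 500 bases. Coding starts alone, the RefSeq promoters and word positions were chosen after seeing the data.

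The genes and lists were chosen with earlier results of these data known. Genes were named by a rule: isoform pairs, c subunit genes, all Sdh genes, those without a peak in both replicates, the 3 highest and 2 lowest of each complex by mean percentile, the 3 widest, complex I core and F1 genes, and from other lists the genes without a peak and the 2 highest. Ndufb9, Ndufb11, Cox7b, members named for a shared start, and further listed regulators and carriers were named after their values were seen. A list name, Atp5if1, matched no symbol. Some genes that the rule takes, with their values, are not reported here.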

Additional observations from a re-analysis of the deposited data

How the results depend on the processing

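The count of 68 marked subunit genes was 68 with windows of 500 bp and 2.5 kb, with an overlap of 200 bp, with a −log10 q of at least 5 and with coding starts alone. It was 65 with the 5′ end alone, 61 with the 20000 highest peaks and 76 in both lists from the 2 replicates together. With either replicate left out it was 72. Among the 51 genes without a shared start 38 were marked (74.5%), against 81.0% of all 84 and 33.6% of all genes without a shared start. The counts there were 15 of 19 in complex I, 1 of 1 in complex II, 2 of 4 in complex III, 10 of 17 in complex IV and 10 of 10 in complex V. There the median percentile, averaged over the replicates, was 56.8 against 63.3, and the median width 799 bp against 930 bp. The cause was not tested. With 1 replicate left out the median percentile ranged from 61.1 to 63.0 and the width from 854 to 942 bp. The median number of distal peaks was 1.00 within 100 kb against 0 within 25 kb, as a longer distance gives. No paired analysis was possible because all samples form 1 group. The unknown depth limits every absent call.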
